A study of Moesziomyces aphidis with 9 samples.

Results

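Introns of 110 to 1000 nt form the longer class among the introns that the fungus Moesziomyces aphidis (formerly Pseudozyma aphidis), strain DSM70725, spliced in every library of the main comparison. An intron was taken from each deposited splice junction and matched by scaffold, first base, last base and strand, with positions counted from 1. Introns listed in all 6 unstranded 50 bp libraries are called core introns here, and 552 of the 2312 core introns (23.9%) had a length of 110 to 1000 nt. A further 1734 core introns were shorter and 26 were longer, and 8340 junctions were listed in any of the 6 libraries. The choice used length and presence in all 6 libraries, so each intron had at least 1 read in every library of both media. Introns missing from any 1 of the 6 lists were left out, also some with reads in both media. Beyond presence, the choice used neither the number of reads nor a difference between media.

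Soybean oil cultures, labelled as induced and as filaments, grew in medium with 40 g/l glucose and 70 g/l soybean oil. Glucose cultures, labelled as not induced and as blastospores, grew in medium with 40 g/l glucose alone. Both were kept at 30 °C for 114 h, and 3 libraries per medium were made with an unstranded kit and read as 50 bp single reads. Replicate 1 of each medium also had a stranded library with 2 junction lists, whose difference the labels do not explain, and soybean oil replicate 2 also had a paired-end library of 95 bp reads. Medium and cell form changed together and cannot be told apart. Sample titles carry the tag br, which commonly stands for biological replicate, but no label describes separate cultures. The p-values cover only the spread among these libraries, which may in part be technical.

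Splicing removes introns from the primary transcript at a donor site at the 5′ end and an acceptor site at the 3′ end. Smut fungi and their yeast-like relatives carry short introns in part of their genes, and a longer intron offers more room for a second donor or acceptor and for sequences unrelated to splicing. Reads that span a junction count spliced molecules, so they move with the transcript's level as well as with the choice of splice site.

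The soybean oil libraries held 173636 to 224962 junction-spanning reads and the glucose libraries 163851 to 192243. The stranded lists were smaller, with 41375 and 40475 reads for soybean oil and 98593 and 97781 for glucose, and the 95 bp library held 2532134. Across core introns, which are not independent replicates, glucose replicates 1 and 2 correlated at r = 0.959 on the log scale while glucose replicate 3 reached 0.932 and 0.934 against these. Pairs of soybean oil libraries had r of 0.951 to 0.957. A count of 0 here means that a list did not name the junction. By counting error alone 0 allows up to 3 reads, but 2 lists of 1 library could differ by more. A 0 is thus no upper limit on the reads. The lists name no genes, so the labelled cell form was not checked against marker genes here.

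The 552 introns had a median length of 223.5 nt (quartiles 132.75 and 424). Of these, 190 measured under 150 nt, 68 measured 150 nt to under 200 nt, 85 measured 200 nt to under 300 nt, 107 measured 300 nt to under 500 nt and 102 measured 500 to 1000 nt. They lay on all 24 scaffolds that carried core introns, 301 of them on the plus strand. Scaffolds 2 and 17 held 78 each, and the share of core introns of up to 1000 nt that belonged to the class ran between 10.2% on scaffold 8 and 38.5% on scaffold 19. A length that was a multiple of 3 was found for 191 introns (34.6%), against 517 of the shorter core introns (29.8%). Of the introns at the lower length limit, 8 measured 110 nt and 10 core introns lay just outside, 1 nt shorter. The first 3 of each by name are given. Inside, the scaffold 10 intron at 356880 to 356989 had 29, 31 and 29 reads with soybean oil and 20, 25 and 24 on glucose. That of scaffold 11 at 485283 to 485392 had 6, 4 and 7 against 17, 10 and 10, and that of scaffold 13 at 338745 to 338854 had 820, 925 and 628 against 456, 396 and 600. Outside, the scaffold 13 intron at 292027 to 292135 had 30, 25 and 19 reads with soybean oil and 37, 23 and 27 on glucose. On scaffold 17, the intron at 72077 to 72185 had 35, 34 and 35 against 26, 24 and 24, and that at 1876811 to 1876919 had 5, 7 and 5 against 4, 2 and 1. Values on both sides of the limit ran higher with soybean oil in some introns and lower in others.

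The place of an intron in its transcript was taken from its neighbours. Core introns of up to 1000 nt on the same strand with gaps under 1000 nt were joined into a locus, as a stand-in for a transcript, since the lists carry no gene models. In loci with at least 2 of these core introns, 164 of 317 longer introns (51.7%) were the 5′-most, against 366 of 1036 shorter ones (35.3%). The shares that stood alone in their locus were close, with 235 longer introns (42.6%) and 698 shorter ones (40.3%). These shares describe fixed positions and were not tested.

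The first comparison asked how often longer introns were read compared with shorter ones. The median longer intron had 51.5, 61.5 and 48 spanning reads in the 3 soybean oil libraries and 51, 46.5 and 43 in the 3 glucose libraries. The median shorter core intron had 25, 33 and 24 reads with soybean oil and 31, 26 and 21 on glucose. The longer introns were higher in 6 of 6 libraries, by a mean of 23.6 reads (two-sided exact sign-flip test, p = 0.031, the smallest that 6 libraries allow). All 6 libraries read the same introns, so this p does not cover the spread among introns. With any 1 library left out the difference was 22.6 to 24.3 reads and the exact p 0.0625, the smallest for those left. In these bulk samples, more cells with a transcript cannot be told apart from more RNA per cell.

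Abundance was not even over the class. The median of the mean reads over the 6 libraries was 24.5 for core introns up to 75 nt, 29.2 at 76 to under 110 nt, 39.8 at 110 to under 150 nt, 47.1 at 150 to under 200 nt, 25.3 at 200 to under 300 nt, 71.2 at 300 to under 500 nt and 113.9 at 500 to 1000 nt. The introns of 200 to under 300 nt thus sat near the short ones, and those of 500 to 1000 nt were highest. At least 100 mean reads were reached by 180 longer introns (32.6%) and 213 shorter ones (12.3%).

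**Figure D1:**
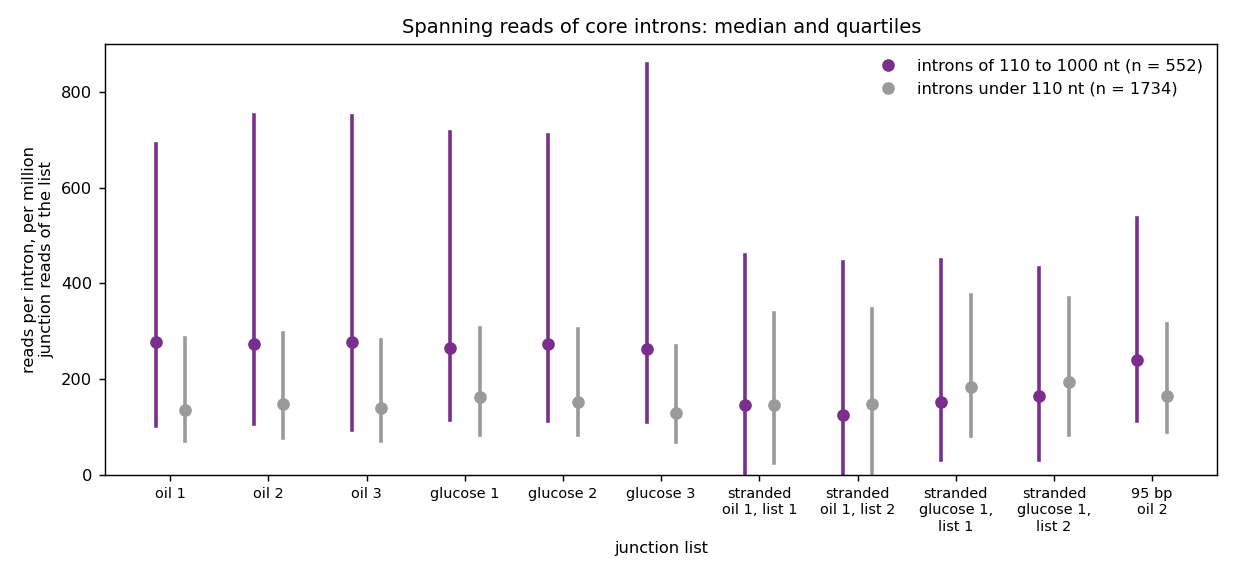
Spanning reads per intron, scaled to the list's junction reads, for core introns of 110 to 1000 nt and under 110 nt (points are medians, bars run from the lower to the upper quartile), in each of the 11 junction lists. The longer introns lie above the shorter ones in the 6 unstranded libraries and the 95 bp library, and the gap is absent or turned in the stranded lists.

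No shift of reads between the length classes was detected between media. Longer introns took 37.5%, 36.8% and 37.2% of the core introns' reads with soybean oil and 35.5%, 36.6% and 39.2% on glucose, so the groups overlapped. The means were 37.2% ± 0.385 with soybean oil and 37.1% ± 1.93 on glucose (SD, n = 3 each). The difference of 0.0732 percentage points was smaller than the spread between replicates (two-sided exact permutation test, p = 0.9, where 3 against 3 cannot go below 0.1). Without glucose replicate 1 it was -0.73 and without glucose replicate 3 it was 1.14 percentage points. The ratio of the longer to the shorter introns' median was 1.97 ± 0.101 with soybean oil and 1.83 ± 0.204 on glucose (exact permutation p = 0.3).

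The most read introns of the class carried 15.9% of its reads in 10 introns, and 0 of these 10 were called changed between media by edgeR's quasi-likelihood test at an adjusted p under 0.05, which called 21.7% of all tested junctions. The scaffold 2 intron at 1803887 to 1804114 (minus strand, 228 nt) led with 2537, 2567 and 1936 reads in the soybean oil libraries and 2376, 2476 and 2335 in the glucose libraries. Its groups overlapped, and its log2 fold change was -0.19 (SE 0.19, edgeR adjusted p 0.529). Next came the scaffold 17 intron at 25515 to 25698 (minus strand, 184 nt), with 1418, 1708 and 1347 reads with soybean oil and 1444, 1383 and 1446 on glucose. The third, on scaffold 19 at 660118 to 660480 (minus strand, 363 nt), had 1386, 1126 and 986 reads with soybean oil and 777, 747 and 752 on glucose. Its groups did not overlap, but the log2 fold change of 0.48 had an edgeR adjusted p of 0.133. Reads varied among the longest introns. The 985 nt intron of scaffold 13 at 90453 to 91437 had 13, 17 and 12 reads with soybean oil and 24, 12 and 13 on glucose. The 921 nt intron of scaffold 3 at 100896 to 101816 had 146, 254 and 197 reads with soybean oil and 241, 201 and 300 on glucose.

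The stranded libraries listed fewer of the longer introns, and some of the well-read ones were in none of their lists. The soybean oil lists named 389 and 377 of the 552 and the glucose lists 432 and 433, and 64 were in none of these 4 lists. Longer introns took 30.2% and 29.7% of core reads in the stranded soybean oil lists and 25.1% and 25.3% in the stranded glucose lists, below all 6 unstranded libraries. The 95 bp library listed all 552, with at least 15 reads each, and gave them 30.1% of core reads. With 1 stranded library per medium, none of these differences was tested.

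Well-read introns were also missing from the stranded lists. Of the longer introns with at least 100 reads in the unstranded library of replicate 1, both stranded lists lacked 39 of 171 (22.8%) for soybean oil and 29 of 177 (16.4%) for glucose. For shorter core introns it was 8 of 219 (3.65%) and 8 of 239 (3.35%). Within the longer class the share was highest at 500 to 1000 nt, with 20 of 50 (40%) for soybean oil and 18 of 53 (34.0%) for glucose, and lowest under 150 nt, with 3 of 40 (7.5%) and 2 of 45 (4.44%). Over all introns of a length class, the median ratio of stranded to unstranded glucose reads in the first list was 0.638 up to 75 nt, 0.574 at 76 to under 110 nt, 0.476 at 110 to under 150 nt, 0.300 at 150 to under 200 nt, 0.571 at 200 to under 300 nt, 0.323 at 300 to under 500 nt and 0.150 at 500 to 1000 nt. The ratio of 95 bp to 50 bp reads in soybean oil replicate 2 was between 9.78 and 12.4 in the classes under 500 nt and 6.79 at 500 to 1000 nt. The part of library preparation and of junction finding in these ratios was not tested.

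In all, 26 longer introns had at least 100 reads in replicate 1 of both media and 0 in all 4 stranded lists. They were 118 to 925 nt long (median 644), lay on 13 scaffolds and averaged 121 to 584 reads over the 6 libraries. The scaffold 12 intron at 144016 to 144815 (minus strand, 800 nt) had 614, 669 and 486 reads with soybean oil and 469, 389 and 364 on glucose, and 5311 in the 95 bp library. The scaffold 14 intron at 45253 to 45509 (plus strand, 257 nt) had 464, 727 and 573 reads with soybean oil and 641, 556 and 545 on glucose. The scaffold 13 intron at 103814 to 104738 (minus strand, 925 nt) had 247, 309 and 211 against 257, 256 and 300. All 26 were in the 95 bp list, with 238 to 5311 reads. Of the 26, 8 were alone in their locus, and in the other 18 loci the missing intron was the 5′-most in 18 of 18. Among the 125 introns with as many reads that did appear in a stranded list, 32 of the 80 in loci of at least 2 (40%) were the 5′-most. The median absolute log2 fold change between the media was 0.15 for the 26 missing introns, of which 1 was called, and 0.26 for the 125 others, of which 22 (17.6%) were.

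The leading intron of scaffold 2 at 1803887 had 16 and 20 reads in the stranded soybean oil lists and 0 and 20 in the stranded glucose lists, against 1936 or more in each unstranded library. The scaffold 19 intron at 660118 had 6 and 0 against 7 and 0. Lists of one library could disagree: the scaffold 17 intron at 970460 to 970619 had 0 reads in the first stranded glucose list and 146 in the second.

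**Figure D2:**
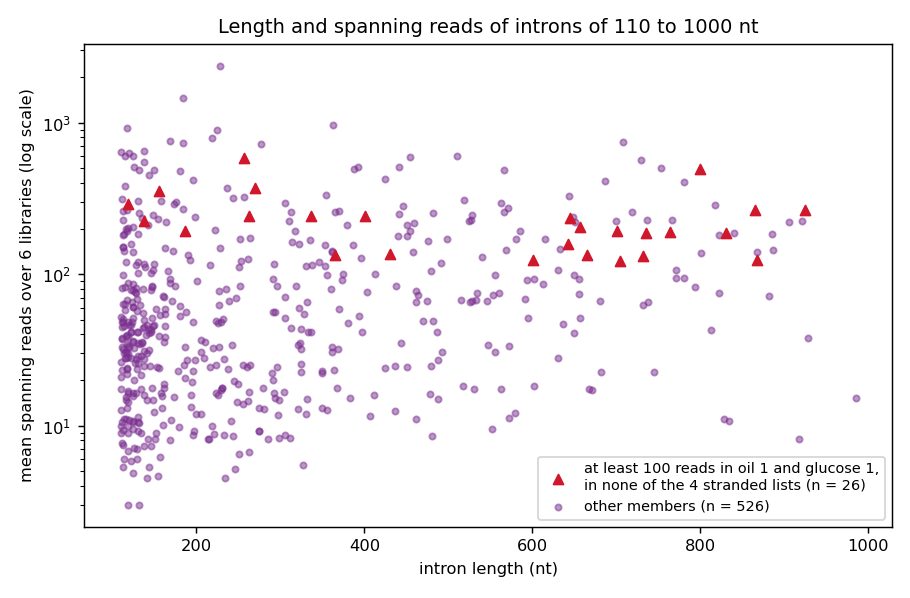
Mean spanning reads over the 6 unstranded libraries (log scale) against length in nt, 1 point per intron of 110 to 1000 nt. Triangles mark the 26 introns with at least 100 reads in replicate 1 of both media and none in the 4 stranded lists, 15 of which measure 500 nt or more.

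The main comparison asked which longer introns changed with soybean oil. edgeR was fitted to 2270 junctions that passed its filter on low counts, and 504 of the 552 longer introns were among them. The other 48 averaged 3 to 12 reads. At an adjusted p under 0.05, 47 longer introns rose and 56 fell with soybean oil, 103 in all (20.4% of those tested). The same rule called 21.7% of all tested junctions, 9.78% higher and 11.9% lower, so the share in the class was near that of all tested junctions. Called changes were at least 2-fold in 26 risen and 39 fallen of the 504 tested longer introns. Over all 2270 tested junctions it was 335 (14.8%). The median log2 fold change was -0.01 in the class (quartiles -0.41 and 0.31) and -0.01 over all tested junctions. An unadjusted p under 0.05 was found for 161, and DESeq2 called 77. The count was 61 without glucose replicate 2, 66 without soybean oil replicate 1, 67 without soybean oil replicate 3, and 21 with the 95 bp library in place of soybean oil replicate 2. Of the 504 tested longer introns, the reads as deposited did not overlap between media in 110 higher with soybean oil and 58 lower. These reads were not scaled for library depth. Over all tested junctions the share without overlap was 34.4% (21.3% higher and 13.1% lower).

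Calls were also counted among well-read introns. Of the longer introns with at least 100 mean reads, 39 of 180 (21.7%) were called, with a median absolute log2 fold change of 0.26. Of the shorter core introns with as many reads, 86 of 213 (40.4%) were called, with a median of 0.49. In the class of 500 to 1000 nt 11 of 100 were called, 5 higher and 6 lower, and 6 of the 53 with at least 100 reads. At 110 to under 150 nt it was 41 of 168, and 16 of the 43 with at least 100 reads. The difference between these shares was not tested, since introns of 1 transcript share its level.

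**Figure D3:**
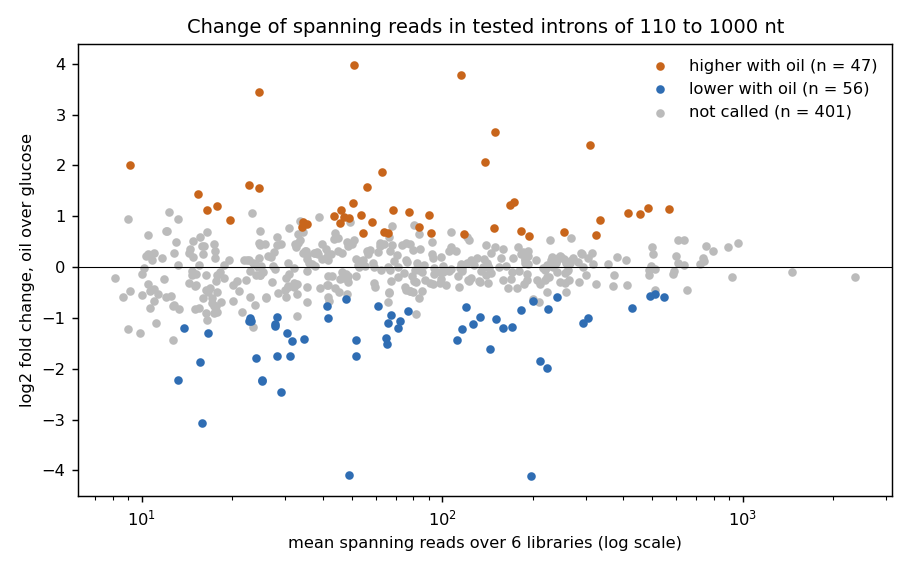
Log2 fold change of spanning reads, soybean oil over glucose, against mean reads over the 6 libraries (log scale), for the 504 tested introns of 110 to 1000 nt. Coloured points are the 47 called higher and 56 called lower by edgeR, and 0 of the 10 most read introns, at the right, were called.

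The strongest rises were in neighbouring introns of scaffold 15. The intron at 480411 to 480522 (plus strand, 112 nt) had 97, 121 and 71 reads with soybean oil, against 8, 2 and 6 on glucose. Its log2 fold change was 3.98 (SE 0.35, edgeR adjusted p 0.000122). The next intron upstream in the same locus, at 480104 to 480231 (128 nt), had 205, 306 and 143 reads with soybean oil and 9, 12 and 20 on glucose, which gave a log2 value of 3.78 (SE 0.34, edgeR adjusted p 0.000135). Both came from 1 locus and may not be separate changes. The stranded lists had 66 and 57 reads with soybean oil and 7 and 9 on glucose for the 112 nt intron.

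An intron near the start of scaffold 9, at 1825 to 1977 (plus strand, 153 nt), had 49, 47 and 40 reads with soybean oil and 2, 6 and 3 on glucose, and its log2 fold change was 3.44 (SE 0.37, edgeR adjusted p 0.000338). On scaffold 14, the intron at 276819 to 276931 (plus strand, 113 nt) had 264, 279 and 244 reads with soybean oil and 54, 35 and 25 on glucose. Its log2 fold change was 2.66 (SE 0.21, edgeR adjusted p 8.18e-05), and every soybean oil library lay above every glucose library. The most read of the strong rises was the 519 nt intron of scaffold 2 at 316949 to 317467 (plus strand), with 811, 281 and 486 reads with soybean oil and 86, 110 and 83 on glucose. Its soybean oil values were uneven, but the groups did not overlap, and the log2 fold change was 2.41 (SE 0.42, edgeR adjusted p 0.00448). In the stranded lists it had 850 and 779 reads with soybean oil, more than any other longer intron there, and 111 and 114 on glucose. It was not called with the 95 bp library in place of soybean oil replicate 2 (edgeR adjusted p 0.179, against at most 0.0378 under the other settings). The other 5 of the 10 strongest rises, on scaffolds 9, 14, 15, 16 and 19, had log2 fold changes of 1.56 to 2.06. The only one among the 10 over 519 nt was the 682 nt intron of scaffold 16 at 206819 to 207500, with 30, 52 and 24 reads with soybean oil and 9, 11 and 10 on glucose.

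Of the 10 strongest falls, 9 were in introns that stood alone in their locus, as did 42.6% of the class. Most of the 10 strongest rises stood alone too. Examples were those at 1825 and 549535 on scaffold 9, 276819 on scaffold 14 and 316949 on scaffold 2. Further ones lay at 210413 on scaffold 15 and 206819 on scaffold 16. Other strong rises did not stand alone, such as those at 480104 and 480411 on scaffold 15. Among the falls, the scaffold 20 intron at 135423 to 135644 (plus strand, 222 nt) had 16, 35 and 20 reads with soybean oil, against 485, 433 and 193 on glucose. Its log2 fold change was -4.10 (SE 0.33, edgeR adjusted p 8.18e-05), and glucose replicate 3 was the lowest of the glucose libraries. The stranded lists had 13 and 11 reads with soybean oil and 378 and 366 on glucose. An intron of scaffold 18 at 338165 to 338646 (plus strand, 482 nt) had 8, 8 and 2 reads with soybean oil and 74, 96 and 106 on glucose, and its log2 fold change was -4.10 as well (SE 0.39, edgeR adjusted p 0.000172). Here glucose replicate 3 was the highest of the glucose libraries. On scaffold 2, the intron at 1633224 to 1633357 (minus strand, 134 nt) had 10, 11 and 8 reads with soybean oil and 60, 40 and 45 on glucose, and its log2 fold change was -2.46 (SE 0.24, edgeR adjusted p 0.000179). Soybean oil values lay below glucose values throughout.

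The steadiest of the strong falls was the 524 nt intron of scaffold 17 at 1060432 to 1060955 (plus strand), with 93, 106 and 95 reads with soybean oil and 346, 355 and 344 on glucose. Its log2 fold change was -1.98 (SE 0.16, edgeR adjusted p 8.18e-05), and the values within each medium lay close together. The other 6 of the 10 strongest falls had log2 fold changes of -2.25 to -1.74. The weakest of them, on scaffold 17 at 1911891 to 1912012, had 3, 18 and 21 reads with soybean oil and 46, 46 and 35 on glucose. It was not called without glucose replicate 1, 2 or 3 or soybean oil replicate 2 (edgeR adjusted p of up to 0.109, and 0.474 with the 95 bp library). Apart from this intron, each of the 20 kept its call with any 1 library left out, and 11 of the 20 (this intron among them) lost it with the 95 bp library in place of the 50 bp one, where 1 more could not be fitted.

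**Figure D4:**
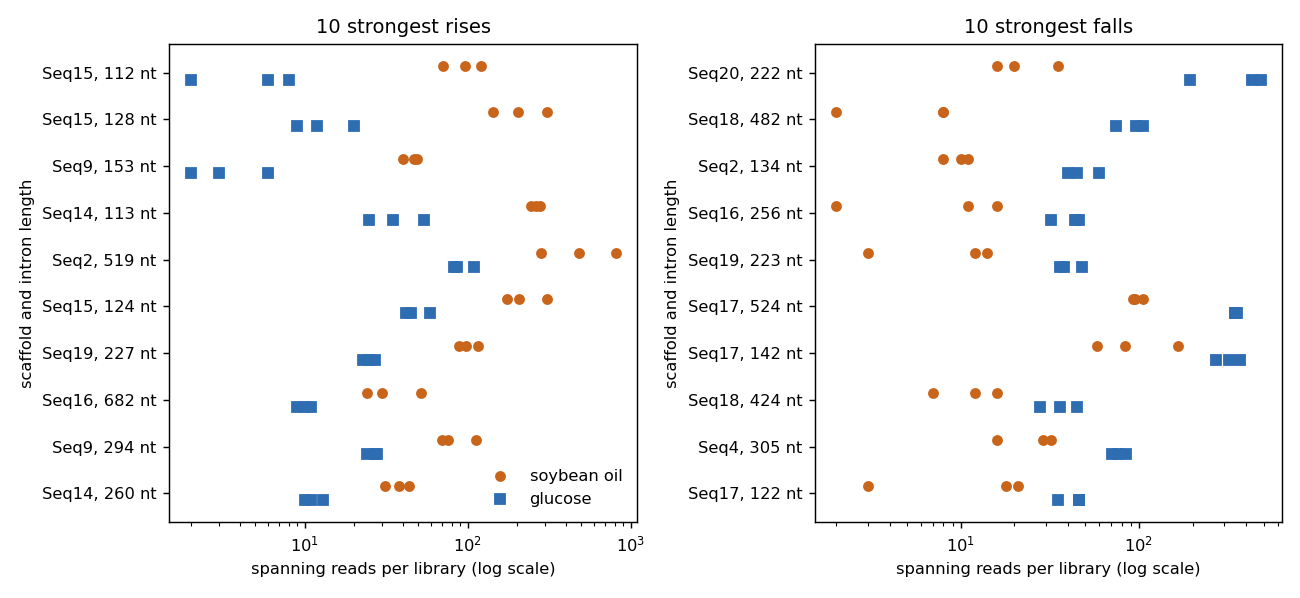
Spanning reads per library (log scale) of the 10 strongest rises and 10 strongest falls among introns of 110 to 1000 nt, 1 point per library, with scaffold and length at the left. In all 20 the soybean oil and glucose points do not overlap, which the choice of these introns required.

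The changed introns were also looked up in the stranded libraries of replicate 1. The choice of these introns had drawn on the unstranded libraries of that replicate. Of the called introns with at least 10 reads there, 30 of 40 risen and 40 of 46 fallen had the same direction in the first lists, and 33 of 42 and 39 of 44 in the second. The direction was thus shared by most, with 1 stranded library per medium and no test.

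Clusters of longer introns within 1 locus were compared to see whether their introns moved together. Some clusters held overlapping introns that share a splice site, which are alternative forms and not neighbours. At 12 places at least 3 longer introns lay in 1 locus. On scaffold 19, 4 introns at 286208 to 287230 (plus strand, 115 to 232 nt) all rose, with log2 fold changes of 0.89 to 1.26. Their summed reads were 257, 393 and 333 with soybean oil and 161, 144 and 123 on glucose, without overlap. The third was not called without glucose replicate 1 or 2 or soybean oil replicate 2 or 3 (edgeR adjusted p of up to 0.0728), and the fourth not without glucose replicate 1 or 3 or soybean oil replicate 2 or 3 (up to 0.0927). With the 95 bp library in place of soybean oil replicate 2, 1 of the 4 kept its call, at 286464 to 286695 (edgeR adjusted p 0.0297).

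On scaffold 17, 3 introns at 970460 to 971234 (plus strand, 118 to 310 nt) all fell, with log2 fold changes of -1.19 to -0.67. They summed to 375, 422 and 351 reads with soybean oil and 672, 622 and 536 on glucose. The calls held with any 1 library left out and were lost with the 95 bp library (edgeR adjusted p 0.109 to 0.941). At 5 of the 12 places none of the longer introns was called. The largest cluster, 6 introns on scaffold 24 at 139181 to 140791 (plus strand), had log2 fold changes of -0.77 to 1.0. It included introns with a shared acceptor at 140177 and introns with a shared donor at 140351. The introns of 1 cluster share a transcript where the locus is 1 gene, so they are not independent.

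Within loci, a longer intron was read slightly less than its shorter neighbour at the median, though not in every locus. In the 75 loci made of 1 longer and 1 shorter core intron, the median log2 ratio of the longer to the shorter intron's reads was -0.21, -0.16 and -0.26 in the soybean oil libraries and -0.13, -0.16 and -0.02 in the glucose libraries. It was below 0 in 6 of 6 libraries, with a mean of -0.16 (two-sided exact sign-flip test, p = 0.031, the smallest that 6 libraries allow). All 6 libraries read the same 75 loci, so this p does not cover the spread among loci. The mean was -0.21 ± 0.0494 with soybean oil and -0.11 ± 0.0730 on glucose (SD, n = 3 each; exact permutation p = 0.1, the smallest possible for 3 against 3). The higher reads of longer introns over the genome were thus not seen in these medians between neighbours. Single loci differed, and the longer intron had more reads in 26, 29 and 27 of the 75 loci with soybean oil. On glucose it had more reads in 29, 33 and 35 loci. In the stranded lists the median log2 ratio was -0.50 and -0.27 with soybean oil and -0.69 and -0.61 on glucose. Where the longer intron was the upstream one (49 loci), the unstranded median was -0.26, -0.16 and -0.28 with soybean oil and -0.13, 0 and 0 on glucose. The stranded ratio there was -0.66 and -0.97 with soybean oil and -0.87 and -0.96 on glucose. Where the longer intron was downstream (26 loci), the unstranded median was -0.21, -0.17 and -0.23 with soybean oil and -0.24, -0.31 and -0.15 on glucose. The stranded ratio there was 0 in both soybean oil lists and -0.20 and -0.22 in the glucose lists.

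The last comparison asked which longer introns shared a donor or acceptor with another junction, and whether the medium changed the choice. Another junction of at least 10 reads used the same donor or acceptor for 89 longer introns (16.1%), against 110 shorter ones (6.34%). At 100 or more mean reads the shares were 26.7% and 24.9%. Of the 115 partner junctions, 66 (57.4%) spanned more than 1000 nt, with a median of 8347.5 nt, and 32 of these 66 were in 1 library only and 7 in the 95 bp list. The 49 partners of up to 1000 nt were better supported, with 22 in all 6 libraries and 46 in the 95 bp list.

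edgeR's differential splicing test called 0 of the 91 splice sites that joined a longer intron, and 0.0% of all 244 sites tested. An unadjusted p under 0.05 was found for 3 of the 91, and the smallest adjusted p was 0.528. Many of the unadjusted Simes p-values were high, up to 0.998, so the 0 calls do not show that site choice was the same in both media. The sites were not tested with a second tool.

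In 14 pairs a longer core intron shared a site with another core intron of up to 1000 nt, 9 at the donor and 5 at the acceptor, and 8 pairs were of 2 longer introns. The longer of the pair took more than 50% of the reads in all 6 libraries in 9 pairs, and the shorter in 2. The shares did not overlap between media in 4 pairs, where the smallest exact permutation p is 0.1 (0.35 after adjustment over the 14). In a further 7 pairs, which were outside this adjustment, the partner was 1 of 6 core introns over 1000 nt. Their shares overlapped between media in every pair, and the partner took more than 50% of the reads in all 6 libraries in 3 of the 7. On scaffold 22 the donor at 126752 (plus strand) joined the 918 nt intron and a junction of 1386 nt, which took 99.5%, 98.9% and 99.2% with soybean oil and 99.5%, 99.4% and 99.7% on glucose.

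Among the 14, the widest difference was at the donor at 177972 of scaffold 23 (minus strand). It had acceptors 2 nt apart, giving introns of 528 and 526 nt. The 528 nt form took 62.1%, 65.8% and 61.9% of the pair's reads with soybean oil and 38.6%, 38.2% and 41.7% on glucose. The means were 63.2% ± 2.18 with soybean oil and 39.5% ± 1.94 on glucose (SD, n = 3 each). Of the pair, the 526 nt form was called by edgeR, with 44, 50 and 40 reads with soybean oil and 105, 89 and 67 on glucose, which gave log2 -1.10 (SE 0.18, edgeR adjusted p 0.00341, and 0.109 with the 95 bp library in place of soybean oil replicate 2). The 528 nt form had 72, 96 and 65 reads against 66, 55 and 48, which gave log2 0.31 (edgeR adjusted p 0.24). The stranded lists gave the 528 nt form 100% and 85.7% with soybean oil, of 19 and 21 reads, and 41.6% and 43.4% on glucose. The site was not called in the test of 244 sites (edgeR adjusted p 0.935) and was called when only core introns entered (0.0183). The smallest adjusted p among sites with a longer intron was 0.0183 to 0.793 under the alternative settings.

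At the donor at 155683 of scaffold 12 (plus strand), the 157 nt form took 76.5%, 70.7% and 75% with soybean oil and 55.9%, 58.9% and 48.9% on glucose, and the rest went to a 106 nt form. The groups did not overlap. The stranded lists gave 78.6% and 87.9% with soybean oil and 75.6% and 80.3% on glucose, so the stranded glucose values lay within or above the unstranded soybean oil range. On scaffold 17 the second most read intron shared its acceptor at 25515 with a 90 nt intron, and the longer form took 54.6% to 54.8% with soybean oil and 53.6% to 54.2% on glucose. It took 53.3% to 54.5% in the 4 stranded lists and 80.2% in the 95 bp library.

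**Figure D5:**
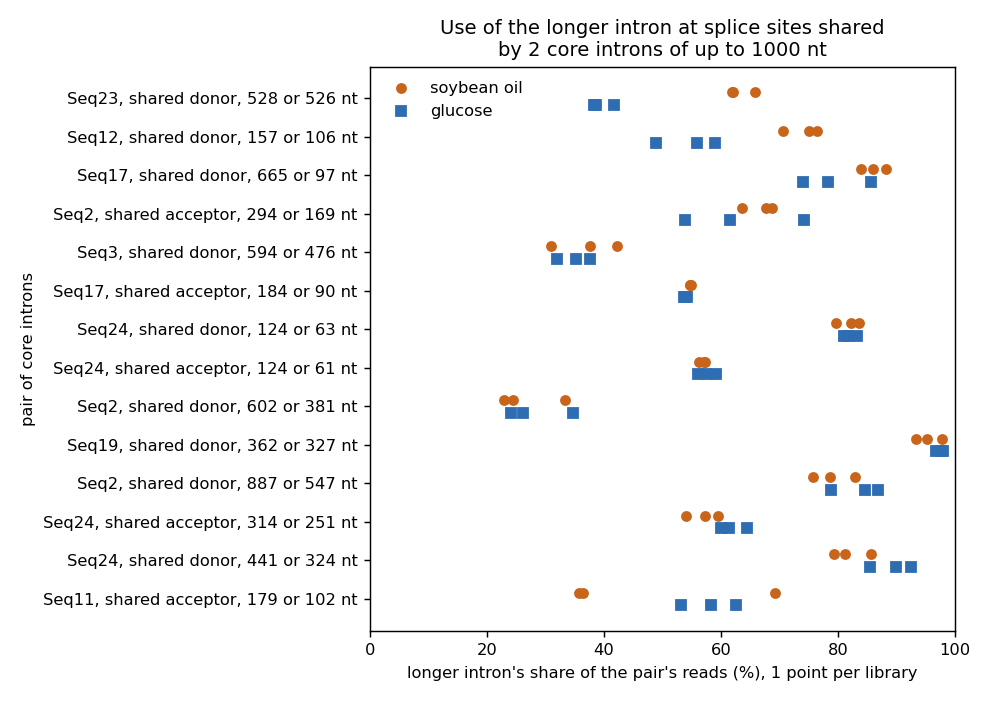
Share of the pair's reads taken by the longer intron (percent) in the 14 pairs of core introns of up to 1000 nt that share a splice site and include an intron of 110 to 1000 nt, 1 point per library. The pairs of scaffolds 23 and 12 at the top lie apart between media, and most others overlap.

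A 45 nt exon between longer introns was left out in part of the transcripts in both media, a case picked out after its values were seen. On scaffold 9 (minus strand) the exon at 396130 to 396174 lay between introns of 681 nt and 403 nt, and a junction of 1129 nt from 395727 to 396855 skipped it in all 6 libraries. The skipping junction took 51.7%, 48.7% and 41.0% with soybean oil and 48.6%, 44.4% and 46.4% on glucose of its reads plus the mean of the flanking introns' reads. The means were 47.1% ± 5.49 with soybean oil and 46.5% ± 2.12 on glucose (SD, n = 3 each; exact permutation p = 0.9). The share was 46.9% and 50.9% in the stranded soybean oil lists, 44.1% and 49.0% in the stranded glucose lists and 34.5% in the 95 bp library. Of the flanking introns, the 403 nt one fell with soybean oil (log2 fold change -0.87, edgeR adjusted p 0.0153). It was not called without glucose replicate 2 or soybean oil replicate 1 or 2 (edgeR adjusted p of up to 0.0744, and 0.647 with the 95 bp library), and the 681 nt one had a log2 value of -0.49 (edgeR adjusted p 0.142).

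On scaffold 24 (plus strand) the 124 nt intron at 104365 to 104488 covered exactly 2 abutting introns of 63 and 61 nt, at 104365 to 104427 and 104428 to 104488. The whole had 169, 246 and 184 reads with soybean oil and 230, 184 and 223 on glucose, and the parts together had 169, 238 and 179 against 226, 170 and 214. The whole and the summed parts thus differed by at most 14 reads in each unstranded library. In the 95 bp library the whole had 172 reads, the upstream part 0 and the downstream part 448.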

How the data were processed

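Per the file headers, the deposited lists are TopHat junctions, and each list gives counts of reads across each junction. The authors used TopHat 1.4.1, per the submitters' processing notes, and no genome build was named in the sources used here. Strand is as listed. Deposited RPKM values were not used, since no file here links gene identifiers to positions, so the planned comparison of host genes was not run and no intron sequence was used. The class and the naming rule (10 most read, 10 strongest rises and falls with at least 20 mean reads and no overlap, 5 longest, shared sites, clusters of at least 3) were chosen with earlier results of these data known.

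Junction reads of the 6 libraries were tested with edgeR 4.0.16 in R 4.3.3 (quasi-likelihood test, TMM, default filter, Benjamini-Hochberg adjustment over all junctions) without a replicate block, and competing sites with its Simes p-values. Single values had exact permutation tests. Alternatives were DESeq2 1.42.0, other scaling, filters, the block, the 95 bp library and each library left out. The tests were tried on simulated data.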

Additional observations from a re-analysis of the deposited data

How the results depend on the processing

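The count of 103 changed introns was 101 with RLE scaling, 77 with DESeq2, 100 without the filter and 131 among core introns alone, and it dropped to 21 with the 95 bp library in place of soybean oil replicate 2. With single libraries left out it was 61 to 104. The difference in read share was -0.73 to 1.14 percentage points with libraries left out. The difference in median reads was 22.6 to 24.3 with libraries left out, where the exact p cannot go below 0.0625, 55.7 for means and 22.4 against core introns of 76 to under 110 nt. Called sites with a longer intron numbered 1 when only core introns entered and 0 with any library left out. The cause of these changes was not tested.

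Same-numbered libraries of the media deviated together with correlations of -0.0446, 0.0836 and 0.0378. Libraries of different numbers had correlations of -0.1068 to 0.0611. No pairing by number was detected, but such small values cannot show that the samples were unpaired. A fit with the replicate block called 76 introns, and 15.8% of all tested junctions. It gave a read share difference of 0.0732 (exact p 0.75) and called 0 sites, with a smallest adjusted p of 0.205. The alternatives for host genes were not run.

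Several introns that were not called changed sign. With the 95 bp library, log2 fold changes were -0.23 at 304437 and 0.40 at 90453 on scaffold 13, 0.0386 at 25515 on scaffold 17, 0.50 at 441109 on scaffold 20, 0.12 at 115834 and -0.0919 at 433964 on scaffold 21, -0.11 at 177445 and -0.12 at 226193 on scaffold 23, -0.23 at 139864 and -0.056 at 140351 to 140791 on scaffold 24, 0.0125 at 1624157 and -0.077 at 740725 on scaffold 2, and 0.97 at 150287 on scaffold 6. With single libraries left out, log2 fold changes ran between -0.19 and 0.65 at 304437, -0.50 and 0.0538 at 441109, -0.0863 and 0.20 at 139864, -0.37 and 0.32 at 1624157, -0.62 and 0.0113 at 150287, -0.19 and 0.0142 at 1846788, -0.17 and 0.0074 at 25515, -0.16 and 0.15 at 115834, -0.0248 and 0.46 at 433964, -0.10 and 0.15 at 740725, and -0.39 and 0.0232 at 1587195.

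Of the 37 named introns that were called, 10 kept the call under every setting in which they were fitted, and 16 lost it only with the 95 bp library. The scaffold 9 intron at 1825, counted among the 10, could not be fitted with the 95 bp library. Depth limits the 48 introns too weak to test.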

Other observations

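Some longer introns had an overlapping junction that lay outside the core. On scaffold 21 (plus strand) a 78 nt exon between introns of 321 and 364 nt was skipped by a junction of 763 nt in 5 of the 6 libraries. It took 12.3%, 14% and 19.4% with soybean oil and 6.78%, 14.6% and 0% on glucose, on the same measure as for the 45 nt exon of scaffold 9 (exact permutation p = 0.3). The skipping junction had 5, 7 and 9 reads with soybean oil and 2, 3 and 0 on glucose, too few to tell the media apart. The 643 nt and 580 nt introns of scaffold 3 at 148749 to 149391 and 149508 to 150087 enclosed a 116 nt exon, and the junction that skipped it had 10 reads in glucose replicate 3 and 0 in each other unstranded library.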
